A study of Mus musculus with 6 samples.

Results

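The genes of cholesterol and fatty acid synthesis were followed in CD4 T cells that did or did not carry NLRP3, before and during culture under T helper type 2 (Th2) conditions. The set was a fixed list of 31 gene symbols, 21 of the sterol branch and 10 of the fatty acid branch, and all 31 were found with an accepted status among the 23091 symbols of the deposited tables. RNA came from 6 libraries of C57/Bl6j mice aged 7 weeks, 1 library per group: naive CD4 T cells from spleen and lymph nodes, and cells kept for 3 or 6 days on CD3/CD28 coated plates with 10 ng/ml of IL-4 and blocking antibody against interferon gamma, each from wild-type (WT) mice and from NLRP3KO mice. NLRP3 is the sensor protein of an inflammasome, and the series asks how its loss bears on Th2 cells. The labels do not give how the knockout was made, the number of mice behind a library or a pooling of animals. Ribosomal RNA was depleted for the 4 Th2 libraries, whereas purified mRNA served for the 2 naive libraries, so stage and library type cannot be told apart in any comparison of Th2 cells with naive cells.

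Cells make sterols and fatty acids from acetyl-CoA. In the sterol branch, acetyl-CoA units are joined and reduced to mevalonate, built up to squalene, closed to lanosterol and trimmed to cholesterol. In the fatty acid branch, acetyl-CoA carboxylase and fatty acid synthase make palmitate, which elongases lengthen and desaturases give double bonds. When sterols run low in the endoplasmic reticulum, the escort protein SCAP carries the precursor of the transcription factor SREBP2, the product of Srebf2, to the Golgi for cleavage, and the freed factor enters the nucleus and activates sterol genes together with NF-Y, while INSIG proteins hold SCAP back when sterols are plentiful. Dividing T cells are known to draw on this program for membranes after activation through the antigen receptor.

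Promoter sequences of 3 sterol genes are shown because each binding motif named here can be read in them and because the 3 genes stand in the synthesis steps and the sensing step described below. They come from RefSeq on GRCm38.p6, another build than the mm9 coordinates of the expression tables, run from 250 bases before to 50 bases after the transcription start, and are written on the gene's strand, with motif matches in capitals. Searches on both strands covered 2 letter patterns: TCACNCCAC, the core of the sterol regulatory element that SREBP binds, and CCAAT, the NF-Y box. No match of the one pattern overlapped the other in these windows.
Hmgcs1, chr13:119690101-119690400, plus strand: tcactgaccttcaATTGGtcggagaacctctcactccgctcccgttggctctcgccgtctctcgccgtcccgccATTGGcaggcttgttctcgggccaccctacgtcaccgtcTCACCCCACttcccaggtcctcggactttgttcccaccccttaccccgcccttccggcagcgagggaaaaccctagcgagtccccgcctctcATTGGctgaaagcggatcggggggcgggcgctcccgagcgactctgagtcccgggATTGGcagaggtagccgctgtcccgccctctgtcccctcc
Cyp51, chr5:4104648-4104947, minus strand: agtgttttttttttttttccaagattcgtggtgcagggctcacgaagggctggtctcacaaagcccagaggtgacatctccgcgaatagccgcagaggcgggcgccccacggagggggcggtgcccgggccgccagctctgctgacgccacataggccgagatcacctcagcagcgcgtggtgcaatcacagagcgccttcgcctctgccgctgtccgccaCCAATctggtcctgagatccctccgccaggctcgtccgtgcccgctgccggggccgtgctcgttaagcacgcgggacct
Insig1, chr5:28071162-28071461, plus strand: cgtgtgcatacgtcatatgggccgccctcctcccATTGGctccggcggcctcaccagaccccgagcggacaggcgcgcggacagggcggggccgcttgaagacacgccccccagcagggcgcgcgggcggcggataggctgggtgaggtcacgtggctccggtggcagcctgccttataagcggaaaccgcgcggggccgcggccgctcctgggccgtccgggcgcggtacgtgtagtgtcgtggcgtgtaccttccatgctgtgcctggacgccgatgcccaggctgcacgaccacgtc
Hmgcs1 held the sterol element core with its first base at position -137 from the start and NF-Y boxes at -237, -176, -45 and 10. Cyp51 held an NF-Y box at -29, and Insig1 held an NF-Y box at -216. Of the 31 members, 24 had a promoter in the table. At least 1 of their promoters held CCAAT in 19 of these 24 genes (15 of 17 in the sterol branch and 4 of 7 in the fatty acid branch), and per promoter the share was 19 of 30 (63.3%) against 12289 of all 32851 promoters (37.4%). The sterol element core was in 1 of the 30 member promoters (3.33%) and in 408 of all promoters (1.24%). These are matches of letters in a short window and say nothing of binding.

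The depth of the libraries sets what can be read from them. Levels are given as deposited, in FPKM, a unit of fragments per length of transcript and per mapped fragments of the library, and compared after a common scaling across libraries. Fragments per gene were inferred from the FPKM, the transcript length and the deposited confidence bounds, and are estimates. Fragments on genes came to 1835397 in naive WT and 1526809 in naive NLRP3KO, but only to between 6246 (NLRP3KO day 6) and 35055 (WT day 6) in the Th2 libraries. For a transcript 2 kb long, 3 fragments amount to FPKM of 0.346 and 0.507 in the naive libraries (WT first), of 2.61 and 3.32 in those of day 3, and of 2.80 and 12.1 in those of day 6. A value of 0 means that no fragment was assigned to the gene, which still allows a level of up to 3 fragments. Nlrp3 itself had an FPKM of 0.0569 in naive WT, under the 0.172 that 3 fragments would give, and read 0 in each of the other 5 libraries, so its loss could not be checked. With 1 library per group, a difference at a single stage has no replicate check and no p-value, while the 3 stages together allow a test with stage as block. Each interval below is an exact 95% interval of a fragment ratio that covers counting error only. It compares the fragments of 2 libraries, not genotypes.

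The cell type was checked on markers. All 7 T cell markers (Cd3d, Cd3e, Cd3g, Cd4, Cd5, Lck, Cd28) were above 0 in naive WT, naive NLRP3KO, WT day 3 and WT day 6, 6 of 7 in NLRP3KO day 3 and 4 of 7 in NLRP3KO day 6. Gata3, the defining transcription factor of Th2 cells, was above 0 in all 6 libraries, at 13.5 and 16.2 in naive cells, 15.6 and 14.4 at day 3, and 11.0 and 5.03 at day 6 (WT first). Il4 was above 0 only in WT day 3, at 3.77, and Il13 was listed at 0 throughout. Il5 was above 0 in naive NLRP3KO alone and was listed at 0 in the 4 Th2 libraries. The Th2 label thus rests on few fragments in these files. In the 4 Th2 libraries all CD8, myeloid, natural killer, erythroid, adipocyte and hepatocyte markers were listed at 0, and of 4 B cell markers Cd79b alone was above 0, at 1.57 in WT day 3.

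Over all members the Th2 libraries of NLRP3KO held a larger share of lipid synthesis transcripts than those of WT. The sterol branch took 0.0719% of gene fragments in naive WT and 0.0869% in naive NLRP3KO, 0.151% and 0.286% at day 3 followed by 0.130% and 0.318% at day 6. Shares of the fatty acid branch were 0.0787% and 0.108% in naive cells, 0.409% and 0.635% at day 3 followed by 0.319% and 0.776% at day 6. In each branch and at each stage the NLRP3KO library had the larger share. In the fatty acid branch at day 3, Scd2 alone made up 54.7% of the fragments in WT and 78.8% in NLRP3KO. Without Scd2 that branch was lower in NLRP3KO at day 3, as given below.

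**Figure D1:**
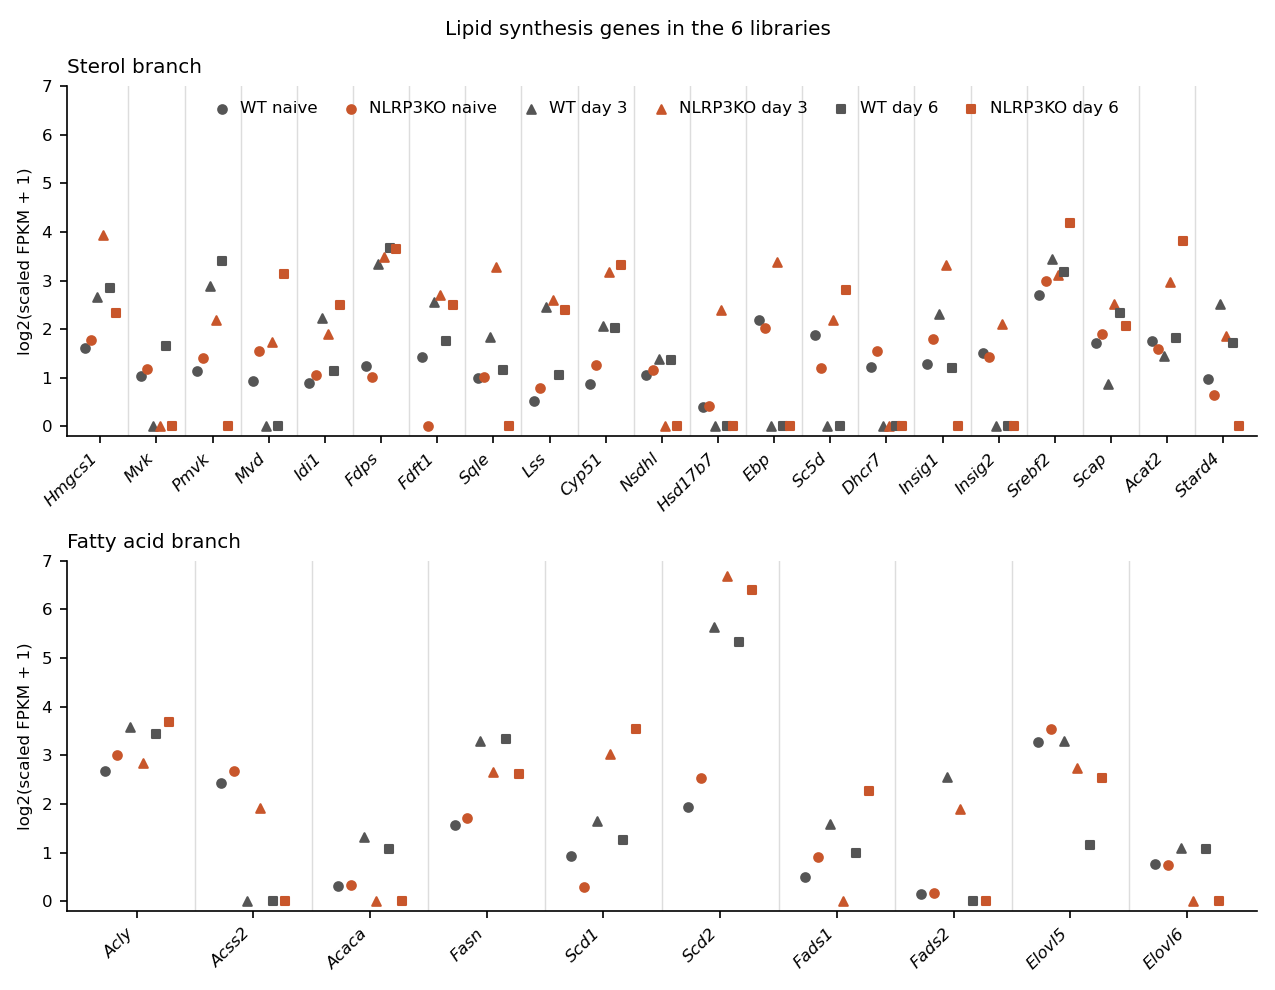
Each member's level as log2 of scaled FPKM plus 1 (vertical axis) in the 6 libraries, the sterol branch above and the fatty acid branch below; grey symbols are WT, orange symbols NLRP3KO, circles naive, triangles day 3 and squares day 6, with 1 library per symbol. Scd2 stands above every other member in the 4 Th2 libraries, and many sterol genes lie at 0 in at least 1 Th2 library.

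At day 3 the sterol branch as a whole was higher in the NLRP3KO library, by 1.79-fold (1.24 to 2.59) on 81 fragments against 51. All genes together stood at 0.936-fold on the same scale, and the 7 T cell markers pooled at 1.44-fold (0.979 to 2.11) on 65 against 51 fragments; their part in the result was not tested. The largest part lay in the steps from lanosterol to cholesterol, at 4.50-fold (1.64 to 15.4) on 20 against 5 fragments. The mevalonate steps were at 1.65-fold (0.771 to 3.63), the steps from squalene to lanosterol at 1.58-fold (0.651 to 3.97) and the sensing genes at 1.38-fold (0.705 to 2.72), each with an interval that spanned 1. Of 18 sterol members with an FPKM of at least 1 in either library, 10 were at least 2-fold higher in NLRP3KO on the scale of log2(scaled FPKM + 1) and 0 were lower, where 25.3% of the 5735 genes kept were higher and 27.2% lower. Of these 10, 5 were listed at 0 in WT and so were kept through NLRP3KO alone (Mvd, Hsd17b7, Ebp, Sc5d and Insig2). Mvd and Insig2 rested on 1 fragment each. Nsdhl, at 0 in NLRP3KO and 0.799 in WT, was not kept although its log2 difference was -1.38. The count of 0 lower therefore depends on the filter. The deposited bounds were apart for 2 of the 10, beside 124 of the 1451 genes that were higher. The members' median log2 difference was 1.20, against 0.11 over all genes kept. It was 0.57 against 0.12 with a library listed at 0 placed at 3 fragments. Those that could not be placed were left out there (3 of 18 members and 1445 of 5735 genes).

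**Figure D2:**
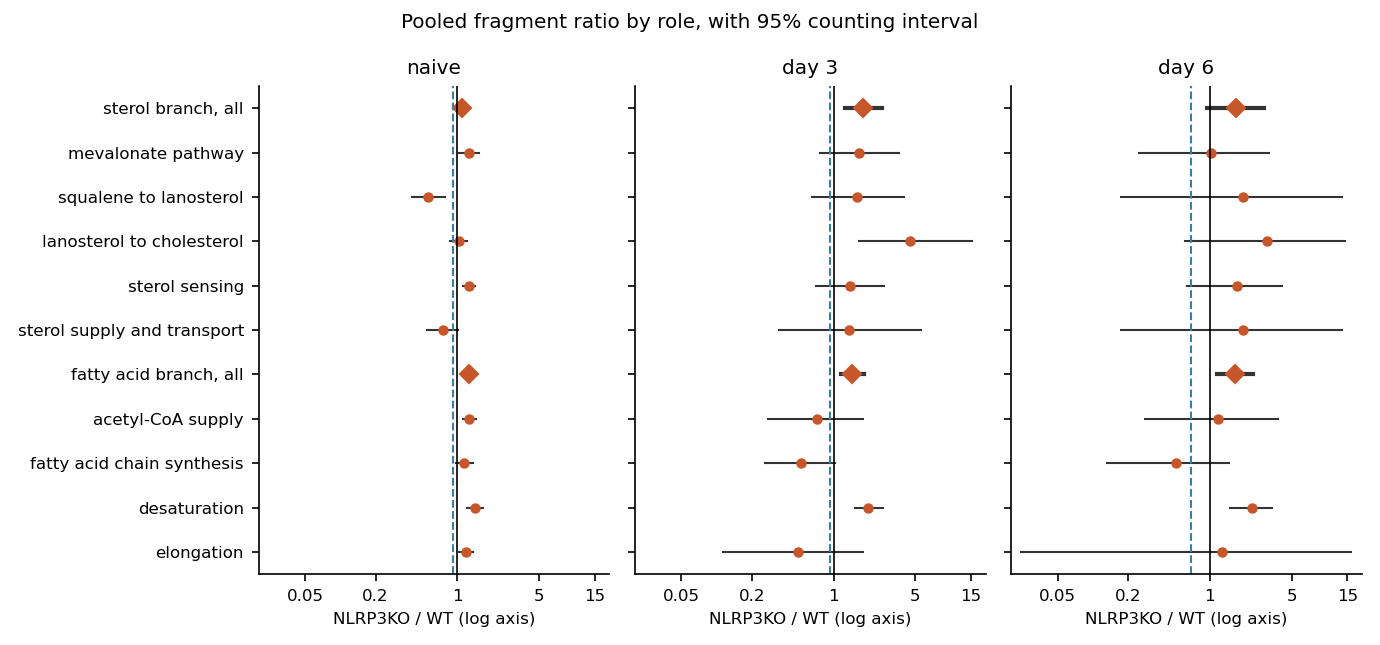
Fragments of NLRP3KO over WT, pooled over each branch (diamonds) and each role within it (circles), with the exact 95% counting interval as a line, on a log axis; the 3 panels are naive, day 3 and day 6, the solid vertical line is a ratio of 1 and the dashed line the ratio of all genes. At day 3 the intervals of the steps from lanosterol to cholesterol and of desaturation lie above 1 (1.64 to 15.4 and 1.52 to 2.62), while chain synthesis lies to the left of 1 with an interval that reaches 1.02.

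Among the genes of the mevalonate steps, Hmgcs1 had the most fragments. It encodes the cytosolic HMG-CoA synthase and has 2 entries of the same name on an unplaced part of chromosome 13 (chr13_random, 114710 to 132325 and 308620 to 326235 on mm9). The values of the 2 entries were summed. They read 2.68 and 5.36 in NLRP3KO day 3, and whether they share reads was not tested. Summed Hmgcs1 FPKM were 6.35 in naive WT and 9.82 in naive NLRP3KO, 2.64 and 8.04 at day 3 followed by 3.40 and 2.46 at day 6. The day 3 value of NLRP3KO was the highest of the Th2 libraries, with a fragment ratio of 2.70 (0.886 to 9.79) on 12 against 5 estimated fragments, rounded. Idi1, which isomerizes isopentenyl diphosphate, was 2.60 and 4.46 in naive cells, 1.82 and 1.55 at day 3 followed by 0.652 and 2.83 at day 6. Fdps, the farnesyl diphosphate synthase, was 4.14 and 4.22, then 4.52 and 5.74, then 6.44 and 7.02. The levels of Fdps in the 2 genotypes were close at every stage, with ratios of 0.731 (0.344 to 1.51), 1.13 (0.151 to 8.41) and 0.963 (0.0196 to 9.73), intervals that leave room for several-fold differences in the Th2 libraries.

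The kinases and the decarboxylase between them were near the detection limit in Th2 cells. Mvk, mevalonate kinase, was 3.25 and 5.21 in naive cells and 1.17 in WT day 6, and read 0 in the remaining 3. Pmvk, phosphomevalonate kinase, was 3.67 and 6.68 in naive cells, 3.17 and 2.01 at day 3, and 5.24 and 0 at day 6. Mvd, mevalonate diphosphate decarboxylase, was 2.76 and 7.93 in naive cells, 0 and 1.30 at day 3, and 0 and 4.78 at day 6. In naive cells Mvd was 2.19-fold higher in NLRP3KO (1.25 to 3.96), from 40 against 20 estimated fragments, rounded. Its Th2 values were 1 fragment each in the 2 NLRP3KO libraries and none in WT.

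From squalene to lanosterol, Fdft1, Sqle and Lss act in turn. Sqle, the squalene epoxidase and a rate-limiting step, was 3.02 and 4.13 in naive cells, 1.27 and 4.85 at day 3, and 0.682 and 0 at day 6. The day 3 difference rested on 6 fragments against 2, a ratio of 3.38 (0.604 to 34.2). Lss, lanosterol synthase, was 1.35 and 2.97 in naive cells, 2.24 and 2.85 at day 3, and 0.600 and 2.61 at day 6, higher in NLRP3KO in all 3 pairs, each with an interval that spanned 1. Fdft1, squalene synthase, stood apart: its FPKM was 5.18 in naive WT but was listed at 0 in naive NLRP3KO with bounds of 0 to 0.240, and was 2.44 and 3.10 at day 3 and 1.31 and 2.84 at day 6. In naive WT 64 estimated fragments fell on it. Whether the 0 of naive NLRP3KO is a failed estimate was not tested. Its locus (chromosome 14, 63763988 to 63796630 on mm9) overlaps that of Ctsb, a gene for a lysosomal protease, which was 21.4 in naive WT and 26.3 in naive NLRP3KO. Without Fdft1 the naive ratio of the sterol branch moved from 1.10 to 1.16.

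The steps from lanosterol to cholesterol held the widest gap at day 3. Cyp51, the lanosterol demethylase, was 2.51 and 5.78 in naive cells, 1.57 and 4.50 at day 3 followed by 1.69 and 5.50 at day 6. NLRP3KO was higher in each of the 3 pairs, with ratios of 1.74 (1.19 to 2.55) in naive cells on 76 against 48 fragments, 2.53 (0.707 to 11.3) at day 3 on 9 against 4, and 2.89 (0.423 to 17.1) at day 6 on 3 against 4. Hsd17b7, a sterol ketoreductase, was 0.995 and 1.39 in naive cells, 0 and 2.38 at day 3 followed by 0 and 0 at day 6. At day 3 this meant 5 fragments in NLRP3KO and none in WT, the only sterol member whose day 3 interval lay above 1 (lower limit 1.03). Ebp, the sterol isomerase, was 10.9 and 12.6 in naive cells, 0 and 5.27 at day 3 followed by 0 and 0 at day 6. Its 4 fragments in NLRP3KO day 3 against none in WT gave a lower limit of 0.743. Sc5d, which introduces a sterol double bond, was 8.23 and 5.28 in naive cells, 0 and 2.00 at day 3 followed by 0 and 3.67 at day 6. In naive cells Sc5d was the lower of the pair in NLRP3KO, at 0.472-fold (0.306 to 0.714). Nsdhl, a decarboxylase of the same route, was 3.32 and 5.05 in naive cells and at most 1 fragment in any Th2 library (0.799 in WT day 3, 0.856 in WT day 6, 0 in NLRP3KO). Dhcr7, the last reductase of the route, was 4.06 and 7.80 in naive cells and was listed at 0 in all 4 Th2 libraries.

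Genes that sense sterols did not move as a block. Srebf2 had the most fragments of the sterol branch in 5 of 6 libraries, with FPKM of 16.9 and 28.2 in naive cells, 4.86 and 4.28 at day 3 followed by 4.42 and 10.5 at day 6. Its ratios were 1.24 (1.08 to 1.43), 0.804 (0.320 to 1.95) and 2.25 (0.750 to 6.19). Insig1, itself a target of SREBP2 and a brake on it, was 4.34 and 10.0 in naive cells, 1.99 and 5.04 at day 3 followed by 0.709 and 0 at day 6. The naive ratio of Insig1 was 1.71 (1.18 to 2.49) and the day 3 ratio 2.25 (0.481 to 13.9), on 6 against 3 fragments. Insig2, which is not a main SREBP target, was 5.58 and 6.84 in naive cells and reached 1.85, a single fragment, in NLRP3KO day 3 alone of the Th2 libraries. Scap was 6.97 and 11.2 in naive cells, 0.415 and 2.64 at day 3 followed by 2.23 and 1.94 at day 6, so that its order at day 3 (5 against 1 fragments) was not that at day 6 (1 against 5 in a shallower library). Acat2, which joins 2 acetyl-CoA units at the entry of the route, was 7.20 and 8.28, then 0.858 and 3.81, then 1.38 and 7.99, on at most 4 fragments in any Th2 library. Stard4, a carrier of cholesterol between membranes, was 2.96 and 2.29, then 2.33 and 1.48, then 1.25 and 0, the lower value in NLRP3KO at each stage and each interval spanning 1.

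Within the fatty acid branch the pattern was uneven: the desaturase Scd2 was higher in NLRP3KO at every stage, whereas fatty acid synthase was not. The branch as a whole stood at 1.45-fold (1.16 to 1.82) at day 3 on 179 against 139 fragments, but at 0.690-fold without Scd2. Desaturation genes were 1.99-fold (1.52 to 2.62) higher, chain synthesis genes were at 0.525-fold (0.257 to 1.02), acetyl-CoA supply at 0.724-fold (0.276 to 1.80) and elongation at 0.500-fold (0.113 to 1.79). Among the 7 members kept there, 3 were higher by at least 2-fold and 0 were lower, beside the 25.3% and 27.2% of all genes kept. Their median log2 difference was -0.56, and -0.60 with zeros at 3 fragments and 1 of 7 left out, a sign opposite to that of the pooled ratio, in which Scd2 weighs most. Scd1 and Scd2 were 2 of the 3, and the third was Acss2 on 2 fragments against 0, kept through NLRP3KO alone. Acaca, Fads1 and Elovl6 read 0 in NLRP3KO and 0.745, 0.9995 and 0.570 in WT. Under the minimum FPKM of 1 they were not kept, although their log2 differences were -1.32, -1.59 and -1.10. The count of 0 lower therefore depends on the filter.

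Scd2 and Scd1 encode stearoyl-CoA desaturases, which turn saturated into monounsaturated fatty acyl-CoA. The genes are paralogs that lie side by side on chromosome 19 (44368166 to 44381352 and 44468940 to 44482199 on mm9), so reads of alike stretches could be split between them. Scd2 FPKM were 8.67 (bounds 7.42 to 9.91) in naive WT and 19.7 (17.4 to 22.0) in naive NLRP3KO, 24.3 (18.7 to 30.0) and 57.1 (47.6 to 66.6) at day 3, and 21.4 (16.1 to 26.8) and 50.9 (34.9 to 68.3) at day 6. At every stage the deposited bounds of the 2 genotypes did not overlap. Ratios of Scd2 fragments were 1.70 (1.42 to 2.04) in naive cells, 2.09 (1.57 to 2.80) at day 3 and 2.08 (1.33 to 3.20) at day 6. An interval above 1 was found for 11.4% of genes with fragments in naive cells, 2.38% at day 3 and 0.779% at day 6. These shares include genes with too few fragments to leave 1. At day 3, 4 fragments against 0 still gave a lower limit of 0.743 (Ebp). They are therefore not matched to the depth of Scd2, with 141 against 76 fragments at day 3, and do not show how rare its ratio is. Scd2 made up 14.2% of the branch's fragments in naive WT and 19.2% in naive NLRP3KO, 54.7% (46.0 to 63.1) and 78.8% (72.1 to 84.5) at day 3, and 56.3% (46.6 to 65.6) and 70.8% (55.9 to 83.1) at day 6, with exact binomial intervals.

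Scd1 reversed its order between naive and cultured cells. Its FPKM were 2.78 (2.08 to 3.44) in naive WT and 0.949 (0.465 to 1.40) in naive NLRP3KO, 1.06 (0 to 2.05) and 4.04 (1.74 to 6.52) at day 3, and 0.757 (0 to 1.84) and 6.57 (1.59 to 12.8) at day 6. NLRP3KO was the lower in naive cells, at 0.260-fold (0.134 to 0.471) on 14 against 59 fragments, and the higher in culture, at 3.38-fold (0.843 to 19.4) at day 3 on 9 against 3 and 7.70-fold (1.10 to 85.2) at day 6 on 4 against 2. Scd1 thus took 22.4% (17.5 to 27.9) of the fragments of the pair in naive WT but 4.22% (2.32 to 6.97) in naive NLRP3KO, and between 3.08% and 10.5% in the Th2 libraries. Adipocyte and hepatocyte markers, of cell types rich in Scd1, were at or near 0 in naive cells (Adipoq, Alb and Apoa1 listed at 0, Fabp4 at 0.470 in naive WT and 0 in naive NLRP3KO, Lpl at 0.0188 and 0.0830). Markers of other cells differed between the naive libraries. B cell markers were at 0.338-fold, natural killer markers at 0.480-fold and erythroid markers at 2.25-fold in NLRP3KO. The part of any of these cell types in the Scd1 values was not tested.

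The front-end desaturases had few fragments. Fads1, the delta-5 desaturase, was 1.27 and 3.63 in naive cells, 1.00 and 0 at day 3, and 0.536 and 2.33 at day 6. In naive cells Fads1 was 2.13-fold (1.20 to 3.93) higher in NLRP3KO. Fads2, the delta-6 desaturase, lay between 0 and 2.43 over the libraries.

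**Figure D3:**
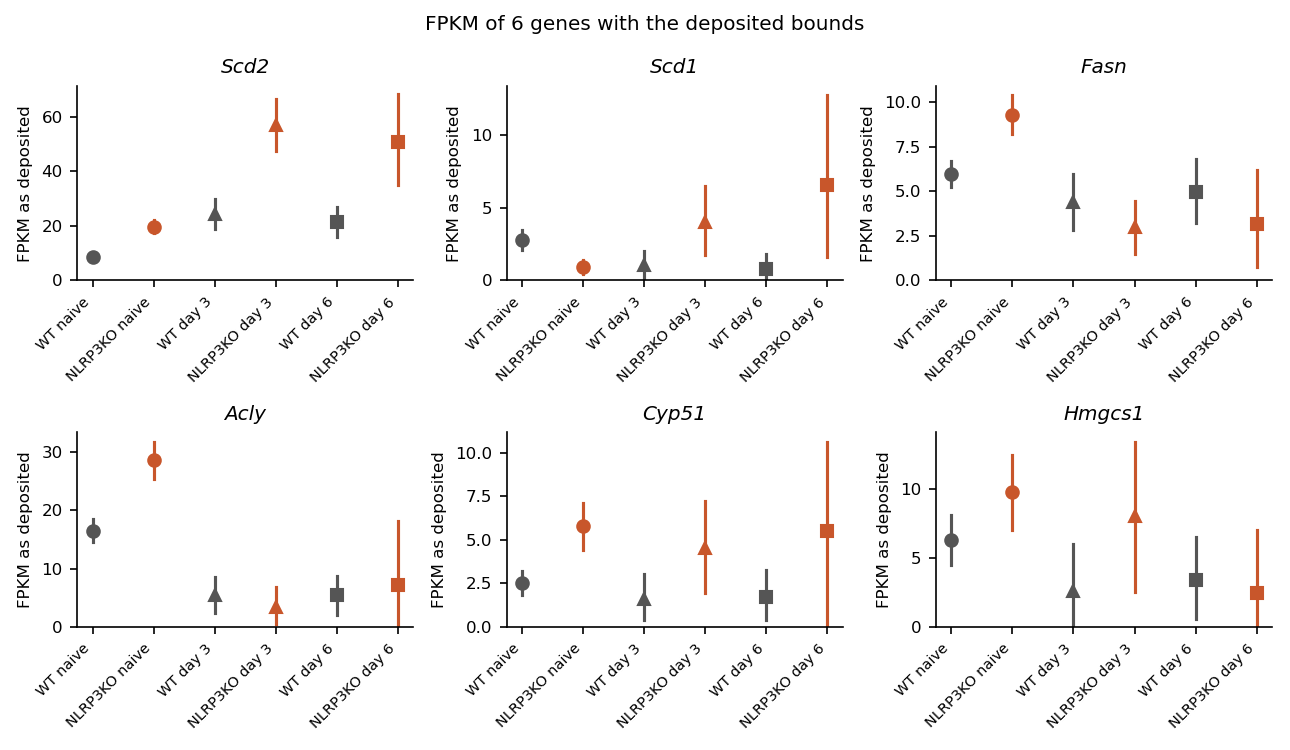
FPKM as deposited (vertical axis, starting at 0) of Scd2, Scd1, Fasn, Acly, Cyp51 and Hmgcs1 in the 6 libraries, with the deposited confidence bounds as vertical lines (summed over its 2 entries for Hmgcs1); grey is WT and orange NLRP3KO, and FPKM are not rescaled here. Scd2 bounds of NLRP3KO lie above those of WT at all 3 stages (47.6 to 66.6 against 18.7 to 30.0 at day 3), while those of Fasn overlap at day 3 and day 6.

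Fasn, fatty acid synthase, was 5.98 (5.24 to 6.71) in naive WT and 9.32 (8.21 to 10.4) in naive NLRP3KO, 4.39 (2.83 to 6.00) and 3.01 (1.48 to 4.45) at day 3, and 4.99 (3.22 to 6.80) and 3.15 (0.776 to 6.20) at day 6. It was the lower in NLRP3KO in both Th2 pairs, at 0.606-fold (0.293 to 1.20) on 14 against 26 fragments and 0.571-fold (0.145 to 1.64) on 4 against 27, and each interval spanned 1. Acaca, the acetyl-CoA carboxylase that feeds it, was between 0 and 1.09 in all libraries. Its fragments numbered 4 and 3 in WT day 3 and day 6 and 0 in both NLRP3KO libraries of those days. Acly, which splits citrate into acetyl-CoA, was 16.5 (14.6 to 18.5) and 28.6 (25.4 to 31.8) in naive cells, 5.45 and 3.46 at day 3, and 5.43 and 7.25 at day 6. The naive ratio of Acly was 1.30 (1.11 to 1.51), and the ratios of 0.563 (0.192 to 1.49) and 1.19 (0.282 to 3.84) in culture lay on either side of 1. Acss2, which makes acetyl-CoA from acetate, was 13.5 and 22.0 in naive cells but was listed at 0 in WT day 3, WT day 6 and NLRP3KO day 6, with 1.57 in NLRP3KO day 3. Elovl5, an elongase of polyunsaturated fatty acids, was 26.6 and 43.8 in naive cells, the highest member there, then 4.40 and 3.19 at day 3 and 0.673 and 2.93 at day 6. Elovl6, which lengthens palmitate, was 2.12 and 2.73 in naive cells and between 0 and 0.612 in Th2 cells.

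At day 6 the pooled branches were again higher in the NLRP3KO library, but on few fragments. The sterol branch stood at 1.67-fold (0.938 to 2.89) on 20 against 46 fragments, and the fatty acid branch at 1.65-fold (1.15 to 2.34) on 48 against 112. All genes together were at 0.686-fold there, a value that moves with the scaling, and with shares of gene fragments in place of the common scaling the ratios were 2.44 and 2.41. Desaturation was at 2.28-fold (1.49 to 3.43), and without Scd2 the fatty acid branch was at 1.10-fold. Of 14 sterol members kept, 6 lay above the 2-fold line in NLRP3KO and 3 lay below it, while of 6 fatty acid members 4 lay above it and 0 below, where 20.9% of the 5319 genes kept were higher and 53.7% lower. Of the 6 higher sterol members, Mvd and Sc5d rested on 1 fragment against 0, Idi1 and Lss on 1 against 1, Acat2 on 2 against 2 and Cyp51 on 3 against 4 in the deeper WT library; among the higher fatty acid members, Fads1 and Elovl5 had 1 against 1. All 3 lower sterol members (Mvk, Pmvk and Stard4) were listed at 0 in NLRP3KO, in which 3 fragments on them corresponded to FPKM of 14.6, 22.3 and 8.09, above their WT values. Sqle, Nsdhl and Insig1, and Acaca and Elovl6 of the fatty acid branch, were at 0 in NLRP3KO and under 1 in WT. They were therefore not kept, although their log2 differences lay between -1.36 and -1.07. The counts of lower members thus depend on the filter. Median log2 differences were 0.87 (sterol) and 1.17 (fatty acid) against -1.52 over all genes kept, and 1.14 and 1.17 against 0.70 with zeros at 3 fragments. The second set left out 4 of 14 sterol members and 2019 of 5319 genes that could not be placed. The 2 backgrounds thus do not cover the same genes. T cell markers pooled were at 0.395-fold (0.165 to 0.818) on 8 against 78 fragments in the same comparison, and the part of this in the members' values was not tested.

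In naive cells, where the depth allows intervals of narrower width, the pooled branch ratios were nearer to 1 than at day 3. The sterol branch stood at 1.10-fold (1.02 to 1.19) in NLRP3KO on 1326 against 1319 fragments and the fatty acid branch at 1.26-fold (1.17 to 1.35) on 1653 against 1444, with all genes at 0.912-fold. On the scale of log2(scaled FPKM + 1), 0 of 21 sterol members were at least 2-fold higher and 1, Fdft1, was lower, and of 9 fatty acid members 0 were higher and 0 lower, where 0.211% of the 9957 genes kept were higher and 2.22% lower. Median scaled FPKM of the sterol branch were 1.33 and 1.41 (WT first), so the added 1 shrinks differences on this scale. Scd1, at 0.260-fold by fragments, read -0.633 on it, and Mvd, at 2.19-fold, read 0.627. Median log2 differences were 0.14 and 0.24 against 0.01 over all genes kept. By fragments, 8 members lay above 1 with their interval (Mvd, Cyp51, Insig1, Srebf2, Acly, Scd2, Fads1 and Elovl5) and 3 below (Fdft1, Sc5d and Scd1), where 11.4% of genes lay above and 12.7% below. The shares of all genes were not matched to the members' depth. As deposited, before scaling, most genes read higher in naive NLRP3KO, by a median log2 of 0.37 over genes above 0 in both, and the branch ratios were then 1.48 and 1.68. Some markers of other cells also differed between the naive libraries. On fragments the 4 B cell markers were at 0.338-fold (0.282 to 0.403) and the 3 natural killer markers at 0.48-fold (0.313 to 0.722). The 4 myeloid markers were at 0.983-fold (0.727 to 1.33). Of the 3 erythroid markers, 2 had a transcript length and were pooled, at 2.25-fold (1.99 to 2.54), and 1 of the 3 was at least 2-fold higher. As deposited, before scaling, the sums in WT and NLRP3KO were 74.2 and 33.0 (B cell), 176.5 and 455.2 (erythroid), 19.3 and 12.3 (natural killer), and 14.4 and 19.4 (myeloid). The part of these markers in the naive differences of the members was not tested.

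Read across the 3 pairs of libraries, which share no library, few members were higher in NLRP3KO each time. Of the 13 members with fragments in all 6 libraries, 3 (Lss, Cyp51 and Scd2) had a ratio above 1 at all stages and 0 a ratio below 1 at all stages. Over the 1722 genes with fragments in all 6 libraries these shares were 20.4% and 12.8%, so the members' 23.1% is close to the background. A fit of genotype with stage as block (limma on log2(scaled FPKM + 1), the 6 libraries, 2 residual degrees of freedom) called 0 of 10515 genes higher and 0 lower at a Benjamini-Hochberg adjusted p under 0.05 (0%), with 138 genes and 0 of the 31 members at an unadjusted p under 0.05. In that fit the log2 difference of NLRP3KO from WT was 0.90 ± 0.35 (SE) for Scd2, 0.94 ± 0.43 for Cyp51 and 1.83 ± 0.66 for Mvd, each with an adjusted p of 0.749. This test takes the genotype difference to be alike at all stages and treats naive and Th2 libraries, of unequal depth, as equally precise.

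Between naive and day 3 cells the 2 branches differed in size, with library type changing alongside. Fatty acid genes were 4.46-fold (3.72 to 5.32) higher at day 3 in WT and 5.16-fold (4.40 to 6.02) in NLRP3KO, and sterol genes 1.79-fold (1.33 to 2.37) and 2.91-fold (2.30 to 3.64), on the common scaling. Desaturation led, at 13.9-fold (10.8 to 17.7) in WT and 19.4-fold (16.0 to 23.5) in NLRP3KO, with Scd2 at 17.2-fold (13.0 to 22.5) and 21.1-fold (17.2 to 25.8). Fasn was 4.53-fold (2.91 to 6.79) and 2.37-fold (1.28 to 4.04) higher, whereas Elovl5 was at 1.01-fold (0.405 to 2.12) and 0.531-fold (0.144 to 1.37). T cell markers pooled were at 0.250-fold and 0.342-fold in the same comparisons. As deposited the branch ratios turned below 1, to 0.292 and 0.400 for sterol genes and 0.726 and 0.709 for fatty acid genes (WT first), because FPKM of the Th2 libraries are relative to totals of which genes made up a smaller part. Among the few members with values of at least 5 in both, Scd2 alone read higher at day 3 than in naive cells also as deposited. Under that cut the trait was not particular to Scd2. Scd1 in NLRP3KO went from 0.949 (bounds 0.465 to 1.40) to 4.04 (1.74 to 6.52). Fdps and Fads2 also read higher at day 3 in both genotypes, with bounds that overlapped.

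From day 3 to day 6 neither branch moved beyond counting error. In WT the sterol branch was at 0.879-fold (0.577 to 1.34) and the fatty acid branch at 0.785-fold (0.607 to 1.02), and in NLRP3KO they were at 0.823-fold (0.478 to 1.36) and 0.894-fold (0.636 to 1.24). No member had an interval that left 1 in either genotype.

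Neighbouring routes of lipid metabolism were set beside the members. Among 16 other genes of sterol synthesis and uptake, 11 were kept at day 3, with 0 higher and 4 lower by at least 2-fold (36.4%, where 27.2% of all genes were lower and 25.3% higher), and a pooled ratio of 0.962 (0.638 to 1.45). Day 6 gave 2 higher and 3 lower of 8 (all genes 20.9% and 53.7%), with a pooled ratio of 1.25 (0.593 to 2.45). The 4 most abundant of this list were Npc2, a lysosomal cholesterol carrier (80.9 and 98.5 in naive cells, 3.19 and 6.75 at day 3, 3.99 and 2.48 at day 6), Lbr, a sterol reductase of the nuclear membrane (42.5 and 56.2, 4.37 and 6.17, 3.13 and 4.53), Lipa, the lysosomal acid lipase (21.3 and 25.8, 0.586 and 1.49, 0 and 0), and Srebf1, the sister gene of Srebf2 (8.07 and 21.7, 2.79 and 3.04, 1.28 and 7.44). At day 3 the pooled ratio of this list was near the 0.936 of all genes.

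The counts of the next 3 lists stand beside the same shares of all genes, 25.3% higher and 27.2% lower at day 3 and 20.9% and 53.7% at day 6. Sterol efflux and esterification genes gave 0 higher and 1 lower of 3 kept at day 3 and 1 higher and 2 lower of 3 at day 6, with pooled ratios of 0.652 (0.280 to 1.44) and 0.321 (0.00751 to 2.17). Nr1h2, a liver X receptor, and Abcg1, a sterol exporter, led this list in naive cells, at 19.0 and 32.3 and at 11.0 and 17.1. Apoe, an apolipoprotein, followed at 4.27 and 7.20, and Soat1, which esterifies cholesterol, at 3.06 and 3.73. Among 19 other fatty acid synthesis genes, 2 of 11 were higher and 3 lower at day 3 and 4 of 9 higher and 4 lower at day 6, with pooled ratios of 1.19 (0.737 to 1.91) and 1.05 (0.349 to 2.67). Tecr, the last enzyme of elongation, was its most abundant gene, at 57.5 and 46.1 in naive cells and 6.44 and 2.14 at day 3, followed by Acsl5 (13.8 and 20.4 in naive cells), Ptplad1 (12.0 and 18.4) and Elovl1 (18.4 and 15.7). Fatty acid oxidation genes, which run the opposite way, gave 1 higher and 0 lower of 6 at day 3 and 1 higher and 4 lower of 5 at day 6, with pooled ratios of 1.03 (0.413 to 2.56) and 0.257 (0.00610 to 1.67). By their highest FPKM in any library its first 4 genes were Hadha, Acadvl, Etfb and Acadm, at 16.8 and 26.2, 14.0 and 24.0, 13.7 and 17.7, and 8.65 and 15.8 in naive cells. Hadhb, chosen after its values were seen, went the other way there, at 15.3 and 8.90. None of these 4 lists had a pooled interval that left 1 at day 3 or day 6, whereas both branches of the members did at day 3 and the fatty acid branch at day 6, and the difference between lists was not tested. At day 3 the lists held between 11 and 55 fragments per library, with wider intervals. The sterol branch held 81 and 51 and the fatty acid branch 179 and 139 (NLRP3KO first). Without Scd2 the fatty acid branch was below 1 at day 3, as given above.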

How the data were processed

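The authors deposited, per the file headers, 1 gene table per library with FPKM, its lower and upper bound and a status. The submitters' processing notes name TopHat, Cufflinks and mm9; versions and annotation: not given in the sources used here. Of the entries, 285 had a status other than OK and were left out. Entries of the same symbol were summed. No count model was applied to FPKM. Each library was multiplied by a factor that set its median ratio to the gene-wise geometric mean to 1, over 1058 genes at FPKM of at least 1 throughout (factors 0.328 and 0.245 for naive WT and NLRP3KO, 2.02 and 1.78 for day 3, 1.83 and 1.63 for day 6). Differences are of log2(scaled FPKM + 1), which understates those of low genes. Genes with FPKM of at least 1 in either library were kept. Every member is named, with full values for those at an FPKM of at least 5 in any library or at least 2-fold apart between genotypes, and up to 4 members of each neighbouring list by their highest FPKM.

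Fragments are FPKM times transcript length times the library's normalization total. The total came from gene models whose bounds mark 1 fragment, and the length came from bounds that mark 1 to 4 fragments for 22 members and from GENCODE transcripts (GRCm38) for the others. In the Th2 libraries 70 of 88 member values above 0 lay within 0.1 of a whole number. Pooled ratios divide fragments by the total over the scaling factor, with an exact Clopper-Pearson interval, and the scaling itself adds error that the interval leaves out. Libraries were amplified for 12 PCR cycles without molecular identifiers. Genotype over the 3 stages was tested with limma (stage as block, trend on the mean, all genes at FPKM of at least 1 in any library). Both procedures were tested on simulated data. From the list of other sterol genes 1 gene is not reported here and was left out of its counts. The members and lists were chosen with earlier results of these data known. Python 3.11.15 with pandas 2.3.3 and scipy 1.17.1, and R 4.3.3 with limma 3.58.1, were used.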

Additional observations from a re-analysis of the deposited data

Results flagged for a closer look

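Scd1 lay on opposite sides of WT in naive and in cultured cells. Its fragment ratio of NLRP3KO to WT was 0.26 in naive cells (14 against 59 estimated fragments) and 7.70 at day 6 (4 against 2), with counting intervals of 0.134 to 0.471 and 1.10 to 85.2. Each stage has 1 library per genotype, and the difference between the stages was not tested.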

How the results depend on the processing

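Each group is a single library, so no replicate could be left out and replicate numbers pair nothing; pairs were formed by stage. The paired fit over the 3 stages called 0 genes in either direction under all 8 settings (pseudocounts of 0.1 and 5, FPKM as deposited, FPKM of at least 1 in all libraries, and without each stage in turn), with the lowest adjusted p of any member between 0.418 and 0.929. The pooled sterol ratio of NLRP3KO to WT stayed above 1 at day 3 and day 6 in 7 of 7 settings each, and the fatty acid ratio at day 6 in 7 of 7. Without Scd2 the fatty acid ratio turned to 0.690 at day 3 and was 1.10 at day 6. With shares of gene fragments as the scale, ratios were 1.21 (sterol) and 1.38 (fatty acid) in naive cells and 2.41 (fatty acid) at day 6. As deposited, naive ratios were 1.48 and 1.68, naive medians 0.55 and 0.67, and day 3 against naive turned to 0.292 and 0.400 (sterol, WT and NLRP3KO) and 0.726 and 0.709 (fatty acid). Summed scaled FPKM gave 3.48 (WT) and 4.07 (NLRP3KO) for fatty acid genes at day 3 against naive, and NLRP3KO ratios were 3.75 without Srebf2 (sterol) and 1.36 without Scd2 (fatty acid). Counts of members at least 2-fold apart moved most, and the cause was not tested. The shares of all genes under the same settings are not given here, and they can move as well. As deposited, the median log2 difference of all genes above 0 in both naive libraries moved by 0.355. The counts below therefore show only how they depend on the setting and are not results about the members. In naive cells they were 2 sterol and 2 fatty acid members higher as deposited, 1 sterol higher, 2 sterol lower and 1 fatty acid lower with a pseudocount of 0.1, 1 fatty acid lower with scaling on the 2 libraries only, and 0 sterol lower with a pseudocount of 5 or with members above 0 in both libraries. At day 3, sterol members higher numbered 1 with a pseudocount of 5, 2 with a minimum FPKM of 5 and 5 with members above 0 in both, fatty acid members higher 0 with a pseudocount of 5 and 1 with a minimum of 5, and without a filter 1 sterol and 3 fatty acid members were lower. At day 6, sterol members higher numbered 3 with a pseudocount of 5 and 2 with a minimum of 5. Sterol members lower numbered 1 under each of these, 6 without a filter and 0 above 0 in both. Fatty acid members higher numbered 2 with scaling on the 2 libraries only, 1 with a pseudocount of 5 and 2 with a minimum of 5, and 2 were lower without a filter. Scaling by fragments on genes moved the median log2 difference of all genes above 0 in both libraries by 0.50 at day 6. The paired fit, the sterol ratio without Fdft1 and transcript lengths from the annotation alone were chosen after seeing the data, and neither of the latter turned a pooled ratio.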
